A study of Mus musculus with 10 samples.

Results

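XMP is a progenitor gate of mouse bone marrow that was sorted here only from Runx1-deleted animals, and its RNA-seq profile is compared with that of wild-type MEP, the megakaryocyte-erythroid progenitor gate. The comparison holds 4 of the 10 samples of the series, 2 libraries of XMP and 2 of wild-type MEP, chosen by their labels. All mice carried the vav-Cre transgene, in which the vav promoter drives Cre recombinase in blood cells. Wild-type mice had intact Runx1 alleles, and the deleted mice carried Runx1 alleles flanked by loxP sites. Cells of both groups were gated as lin- sca- kit+ CD41- CD105-. MEP were CD16/32- CD150+ and XMP were CD16/32+ CD150+, so that genotype and gate differ together in this comparison and their parts cannot be told apart from these 4 libraries. Runx1-deleted MEP (2 libraries), which share the genotype of XMP and the gate of wild-type MEP, are therefore given beside many of the values. The remaining groups are wild-type and Runx1-deleted GMP, the granulocyte-macrophage progenitor gate (CD16/32+ CD150-), with 2 libraries each. No wild-type XMP library was analysed here.

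Runx1 is a transcription factor that binds DNA with its partner Cbfb and that directs blood stem cell formation, megakaryocyte maturation and the granulocyte-monocyte programme. Megakaryocytes are the platelet-forming cells of the marrow, and they branch from erythroid cells at the stage that the MEP gate is meant to capture. CD150 (Slamf1) marks stem cells and early megakaryocyte-erythroid progenitors, and CD16/32 are the Fc gamma receptors Fcgr3 and Fcgr2b, by which GMP are usually told from MEP. A cell positive for both markers does not fall into the usual MEP or GMP gate.

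Levels are RPKM, a read count divided by gene length and library size, so that levels of genes can be compared per length. Values of a group are printed with library 1 first and library 2 second. Differences are XMP minus wild-type MEP on the log2(RPKM + 1) scale with their standard error, which understates the change of low genes. A gene was called when its adjusted p was under 0.05 by limma with Benjamini-Hochberg adjustment. Of 23240 genes, 10324 reached 1 RPKM in at least 2 of the 4 libraries and were tested. In bulk libraries, fewer cells of a type and less RNA per cell cannot be told apart. The labels do not say whether the libraries of a group came from separate animals, so the p-values speak only of library-to-library spread. The fit shares that spread over the 5 groups of the series. A standard error is therefore not that of the XMP and wild-type MEP libraries alone.

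The read totals worked back from the RPKM values were 41.9 and 43.6 M reads in XMP and 36.4 and 45.4 M reads in wild-type MEP, within the 20.8 to 54.9 M reads of the series. Wild-type MEP library 1 was read on lane 3 and library 2 on lane 5, and XMP library 1 on lane 5 and library 2 on lane 4. The wild-type MEP libraries stood further apart than the XMP libraries. They differed at least 2-fold in 728 of the genes tested, the XMP libraries in 61. Across genes, Pearson's r of the log2 values was 0.965 between the wild-type MEP libraries and 0.988 between the XMP libraries (10324 genes, which are not independent replicates). For this reason the lane 5 wild-type MEP library is also shown apart, as the difference between mean XMP and that library alone.

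In all, 1583 genes (15.3% of those tested) were called, 970 of them (9.4%) higher and 613 (5.94%) lower in XMP. At an unadjusted p under 0.05 there were 3490. The calls held 553 genes at least 2-fold higher and 267 at least 2-fold lower, and 86 and 34 at least 4-fold. The median difference over all genes tested was 0.08. In all 1583 called genes the XMP and wild-type MEP libraries did not overlap, and the sign was the same against each wild-type MEP library. A non-overlap alone was common, in 5939 of the genes tested. Of the calls, 511 (361 higher, 150 lower) were made in the same direction in each of 15 fits of the same genes, this fit included, and no call was reversed in any of them. With each library centred on its median, which moved the median of all genes from 0.08 to -0.06, 1894 genes were called, 886 higher and 1008 lower, so that 46.8% of the calls were higher in place of 61.3%. Quantile normalization gave 2218 calls, 1051 higher and 1167 lower (47.4% higher). Without wild-type MEP library 2 the count rose to 4585, without XMP library 1 it fell to 949 and without XMP library 2 to 687. Against the lane 5 wild-type MEP library alone it was 1062 (649 higher, 413 lower). Of the genes tested, 240 passed the filter through XMP alone and 138 through wild-type MEP alone, and of these 181 were called higher and 102 lower. Such genes had to differ, and they are part of the counts above. With group weights, which give the more scattered wild-type MEP libraries less influence, 634 genes were called. In simulated data with the unequal spread of the real groups, the unweighted fit made a share of false calls above the nominal level.

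**Figure D1:**
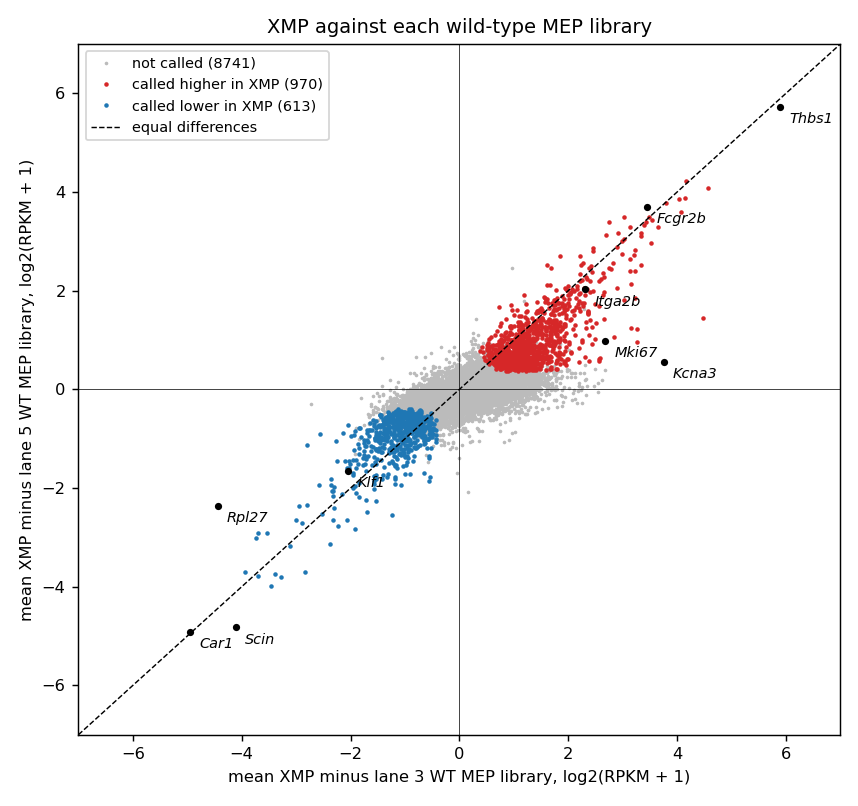
Difference of mean XMP from the lane 3 (horizontal) and the lane 5 (vertical) wild-type MEP library, log2(RPKM + 1), for the 10324 genes tested, with the 970 genes called higher in red and the 613 called lower in blue. Genes near the dashed line, such as Thbs1 and Car1, differed equally from both libraries, while Kcna3, Mki67 and Rpl27 differed mostly from the lane 3 library.

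The genes that mark the gate were checked first. Itga2b, the alpha chain of the platelet integrin and the CD41 antigen itself, had 652 and 682 RPKM in XMP and 133 and 163 RPKM in wild-type MEP (log2 difference 2.17 ± 0.19, adjusted p = 3.07e-05). The XMP libraries lay above every other library of the series, although all 5 groups were sorted as CD41-. Runx1-deleted MEP had 218 and 203 RPKM. Slamf1, which encodes CD150, had 30.9 and 30.8 RPKM in XMP against 8.93 and 10.1 RPKM in wild-type MEP (log2 difference 1.61 ± 0.18, adjusted p = 0.000199). Runx1-deleted MEP, at 24.7 and 29.9 RPKM, were close to XMP for Slamf1.

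Of the genes behind the CD16/32 antigens, Fcgr2b was called and Fcgr3 was not. Fcgr2b, the inhibitory Fc gamma receptor, had 58.2 and 73.8 RPKM in XMP, 5.08 and 4.1 RPKM in wild-type MEP and 7.29 and 9.13 RPKM in Runx1-deleted MEP. XMP differed from wild-type MEP by 3.58 ± 0.20 (adjusted p = 1.68e-06) and from Runx1-deleted MEP by 2.86 ± 0.20 (adjusted p = 7.94e-05), and lay in the range of GMP, with 49.3 and 39.99 RPKM in wild-type and 69.2 and 60.2 RPKM in Runx1-deleted GMP. Fcgr3, the activating receptor that the same antibody binds, had 2.12 and 1.64 RPKM in XMP and 1.34 and 0.814 RPKM in wild-type MEP and was not called (log2 difference 0.48 ± 0.19, adjusted p = 0.111). GMP held 85 and 95.5 RPKM (wild type) and 58.1 and 61.3 RPKM (Runx1-deleted) of it. XMP, although sorted as CD16/32+, thus held Fcgr2b transcript in the GMP range and Fcgr3 transcript far below it. Fcer1g, the signalling chain that Fcgr3 needs at the surface, was not called either (20.6 and 10.3 RPKM against 20.1 and 14.5 RPKM, adjusted p = 0.637). Of 5 genes tested of 8 in the Fc gamma receptor list, 3 were called higher (60%, against 9.4% of all genes tested) and none lower: Fcgr2b, Fcgrt and Fcrla. Fcgr2b lies behind an antigen by which the 2 gates were sorted apart, and Fcrla passed the filter through XMP alone.

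Of the other antigens of the sort, Kit (84.9 and 103 RPKM against 73.2 and 117 RPKM, adjusted p = 0.975) and Eng, which encodes CD105 (53.3 and 46.3 RPKM against 42.6 and 43.4 RPKM, adjusted p = 0.499), were not called. Ly6a, the sca antigen, was low in both and called lower in XMP (2.22 and 1.27 RPKM against 4.71 and 3.14 RPKM, log2 difference -0.84 ± 0.25, adjusted p = 0.0454), a call that was lost against the lane 5 library alone and in 6 other fits. The transcription factors Gata1, Gfi1b, Zfpm1, Nfe2 and Tal1 were present in XMP at levels that overlapped those of wild-type MEP or missed the threshold. Gata1 had 123 and 105 RPKM in XMP and 128 and 103 RPKM in wild-type MEP (log2 difference -0.01 ± 0.22, adjusted p = 0.969), against 11.6 and 7.96 RPKM in wild-type GMP.

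**Figure D2:**
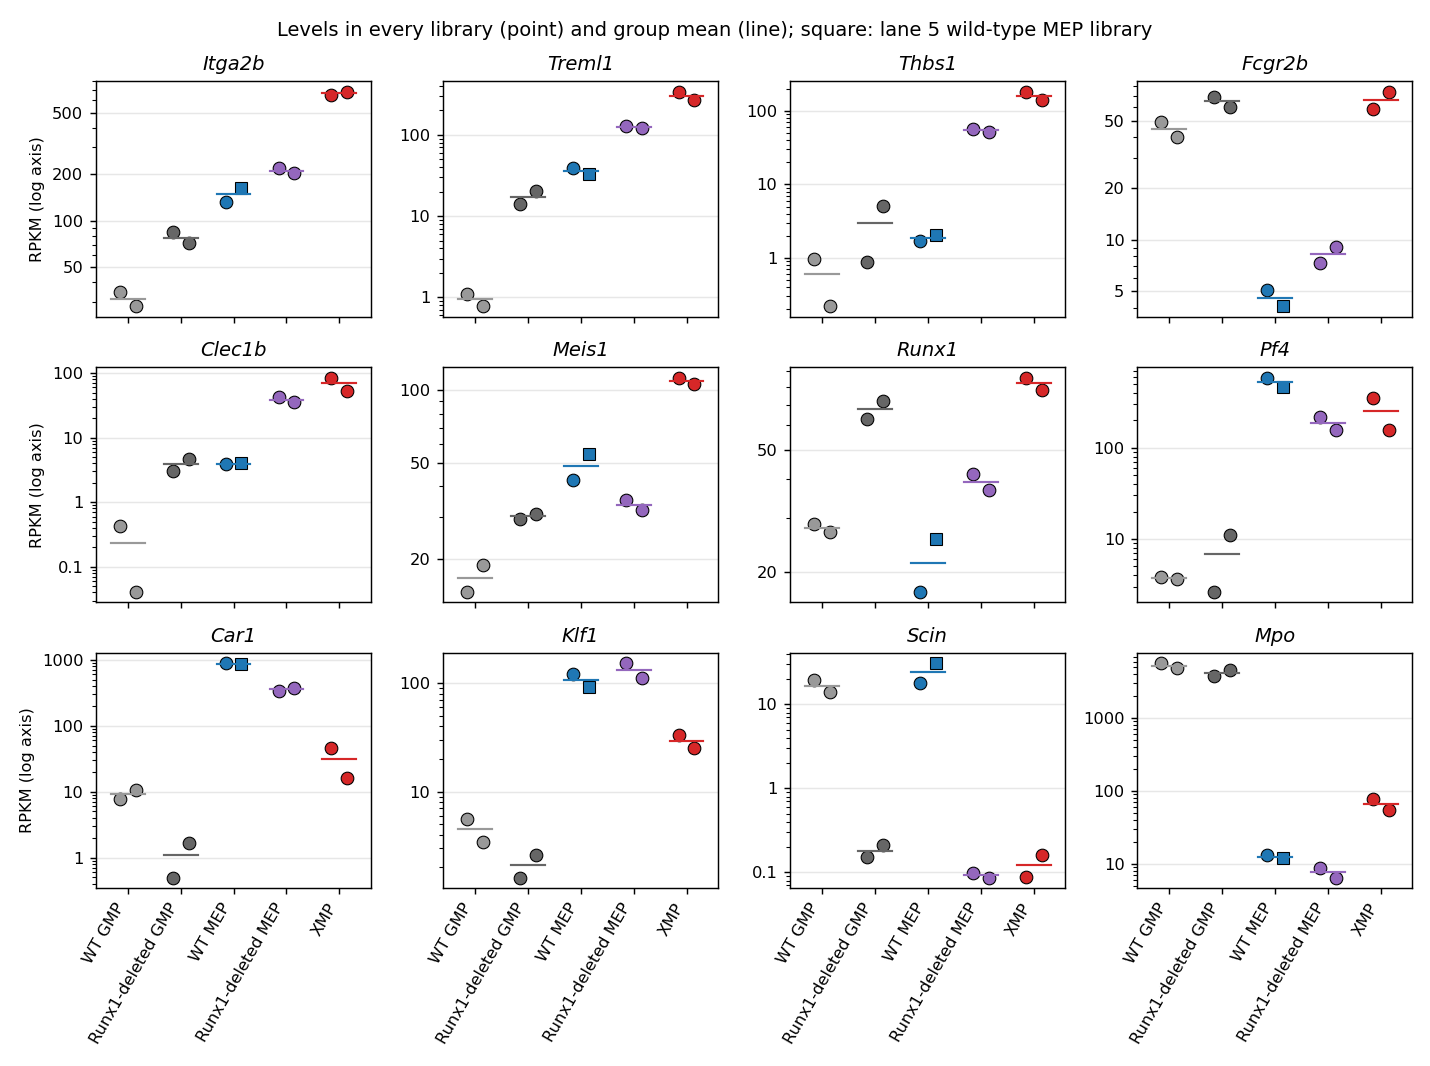
RPKM (log axis, its own range in each panel) of 12 genes in every library, 2 points per group with library 1 at the left, and the group mean as a line; the square is the lane 5 wild-type MEP library. Itga2b, Treml1, Thbs1, Fcgr2b, Clec1b, Meis1 and Runx1 lie above both wild-type MEP libraries in both XMP libraries, Car1, Klf1 and Scin below, and Pf4 is lower in XMP without passing the test.

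The listed genes of megakaryocytes and platelets were mostly higher in XMP. Members of this and the other lists were chosen with earlier results of these data known. The shares called therefore describe the lists and do not test them. Of 50 tested of 56 listed, 33 were called higher and 2 lower (66.0% and 4.0%, against 9.4% and 5.94% of all genes tested), and the median difference was 1.09. It was 1.34 against the lane 3 and 0.91 against the lane 5 wild-type MEP library. Of these genes 3 had passed the filter through XMP alone, so that their direction was fixed, and 30 of the other 47 were called higher. With group weights 21 were called higher, and against the lane 5 library alone 27.

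Among 14 surface adhesion receptors, 10 were called higher (71.4%, against 9.4% of all genes tested) and none lower. Clec1b, the platelet receptor for podoplanin, had 85.2 and 53.5 RPKM in XMP, 3.92 and 3.99 RPKM in wild-type MEP and 42.6 and 35.1 RPKM in Runx1-deleted MEP (log2 difference 3.79 ± 0.26, adjusted p = 7.99e-06). The beta chain of the platelet integrin, Itgb3, had 98.4 and 74.8 RPKM in XMP and 9.61 and 23.8 RPKM in wild-type MEP (log2 difference 2.42 ± 0.34, adjusted p = 0.000734). The difference was 3.03 against the lane 3 and 1.81 against the lane 5 library. Gp1ba, Gp5 and Gp9 encode subunits of the von Willebrand factor receptor. Gp1ba rose from 7.24 and 10.5 RPKM in wild-type MEP to 38.4 and 29.3 RPKM in XMP (log2 difference 1.83 ± 0.24, adjusted p = 0.000453). Gp5 was at 162 and 129 RPKM in XMP against 41.6 and 40.9 RPKM (log2 difference 1.79 ± 0.18, adjusted p = 8.12e-05), and Gp9 at 140.4 and 107 RPKM against 39.4 and 27.7 RPKM (log2 difference 1.86 ± 0.26, adjusted p = 0.000734). In all 4 genes both XMP libraries lay above both wild-type MEP libraries, and Runx1-deleted MEP lay between them, at 22.2 and 20.9 RPKM for Gp1ba and 89.9 and 78.6 RPKM for Gp5. Itgb3, Gp1ba, Gp5 and Gp9 were picked from the list after their values were seen.

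Among 13 activation receptors and signalling genes, 11 were called higher (84.6%, against 9.4% of all genes tested). Treml1, a receptor stored in platelet granules, had 339 and 267 RPKM in XMP, 38.9 and 32.6 RPKM in wild-type MEP and 129 and 121 RPKM in Runx1-deleted MEP (log2 difference 3.04 ± 0.21, adjusted p = 6.47e-06). Its difference from the lane 5 library, 3.16, was no smaller than that from the lane 3 library, 2.92. F2r, the thrombin receptor, and Plek, the major protein kinase C substrate of platelets, were chosen after their values were seen. F2r was at 325 and 306 RPKM in XMP against 99.8 and 122 RPKM (log2 difference 1.51 ± 0.17, adjusted p = 0.000179), and Plek at 274 and 232 RPKM against 47 and 94.6 RPKM (log2 difference 1.90 ± 0.27, adjusted p = 0.000673).

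Granule cargo was split. Thbs1, thrombospondin 1 of the alpha granule, showed the largest rise of all named genes, with 182 and 140.2 RPKM in XMP and 1.71 and 2.02 RPKM in wild-type MEP (log2 difference 5.81 ± 0.43, adjusted p = 1.28e-05). Runx1-deleted MEP had 57.2 and 51.2 RPKM, 4.27 ± 0.43 (adjusted p = 0.000148) above wild-type MEP. XMP minus Runx1-deleted MEP was 1.54 ± 0.43 (adjusted p = 0.0539). Pf4, platelet factor 4, was the most abundant cargo gene named, and it did not pass the test, with 349 and 157 RPKM in XMP and 590.4 and 466 RPKM in wild-type MEP (log2 difference -1.16 ± 0.48, adjusted p = 0.122). Both XMP libraries lay below both wild-type MEP libraries for Pf4, but the XMP libraries differed from each other more than 2-fold. Vwf (34.9 and 26.3 RPKM against 12.9 and 24.6 RPKM, adjusted p = 0.117) and Ppbp (48.6 and 17.5 RPKM against 5.16 and 8.75 RPKM, adjusted p = 0.0952) were not called. Serpine2, a protease inhibitor, fell from 26 and 35.5 RPKM in wild-type MEP to 9.55 and 6.75 RPKM in XMP (log2 difference -1.79 ± 0.23, adjusted p = 0.00038), and Runx1-deleted MEP had 4.39 and 4.59 RPKM. In total 5 of 11 cargo genes were called higher and 1 lower (45.5% and 9.09%, against 9.4% and 5.94% of all genes tested). Of the 5, Thbs1 was called in all 17 alternative fits and F5 in 16. Nbeal2 was called in 12, Mmrn1 in 9 and Clu in 8. Lyz2, a lysozyme gene of myeloid cells, stands in this list by a listing error, was tested and not called, and is part of the 11 and of the 50 above.

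The 3 eicosanoid enzymes tested were called higher, but Alox12 passed the filter through XMP alone and so could differ only in this direction. Alox12, the platelet 12-lipoxygenase, had 37.3 and 21.4 RPKM in XMP, 0.643 and 0.567 RPKM in wild-type MEP and 25.3 and 19.1 RPKM in Runx1-deleted MEP (log2 difference 4.19 ± 0.35, adjusted p = 2.6e-05). Ptgs1, cyclooxygenase 1, and Tbxas1, thromboxane synthase, differed less. Ptgs1 had 33.1 and 31.5 RPKM in XMP against 10.9 and 13.9 RPKM in wild-type MEP and 12.6 and 10.8 RPKM in Runx1-deleted MEP, with a genotype difference in the MEP gate of -0.07 ± 0.17 (adjusted p = 0.832). Tbxas1 had 55.7 and 52.8 RPKM against 25.7 and 26 RPKM and 23.3 and 21.1 RPKM, with -0.21 ± 0.17 (adjusted p = 0.477). So the Alox12 level of Runx1-deleted MEP was near XMP, and the Ptgs1 and Tbxas1 levels near wild-type MEP. Among 9 cytoskeleton genes 4 were called higher and 1 lower (44.4% and 11.1%, against 9.4% and 5.94% of all genes tested). Tubb1, the platelet beta tubulin, was at 18.3 and 13.3 RPKM in XMP, 0.782 and 2.13 RPKM in wild-type MEP and 12.2 and 11.4 RPKM in Runx1-deleted MEP (log2 difference 2.82 ± 0.38, adjusted p = 0.000494), and its call was lost with group weights. Myh9, non-muscle myosin IIA, had 152 and 160.0 RPKM in XMP against 56.2 and 85.4 RPKM (log2 difference 1.16 ± 0.21, adjusted p = 0.00326).

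The promoters of 6 genes that the results turn on are printed to show where the RUNX and GATA letters stand, in genes that rose (Itga2b, Clec1b, Slamf1, Runx1) and in genes that fell (Klf1, Ces2g). They are RefSeq sequences of build GRCm38.p6, 250 bases before to 50 bases after a gene start, while the RPKM values are on mm9. Capitals mark the RUNX motif TGTGGT or TGCGGT and the GATA motif AGATAA or TGATAA on either strand.
Itga2b (chr11:102469834-102470133, minus strand): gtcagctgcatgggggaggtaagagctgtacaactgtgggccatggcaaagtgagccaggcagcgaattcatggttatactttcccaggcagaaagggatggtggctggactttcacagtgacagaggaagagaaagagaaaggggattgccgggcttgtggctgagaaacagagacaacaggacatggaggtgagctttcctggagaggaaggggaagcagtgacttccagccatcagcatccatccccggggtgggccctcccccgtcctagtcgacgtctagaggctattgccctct
Clec1b (chr6:129397047-129397346, plus strand): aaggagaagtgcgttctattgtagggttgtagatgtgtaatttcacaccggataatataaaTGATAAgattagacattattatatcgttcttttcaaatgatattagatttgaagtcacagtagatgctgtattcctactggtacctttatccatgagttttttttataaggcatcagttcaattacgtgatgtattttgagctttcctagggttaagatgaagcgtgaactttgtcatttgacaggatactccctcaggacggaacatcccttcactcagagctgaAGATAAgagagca
Slamf1 (chr1:171766882-171767181, plus strand): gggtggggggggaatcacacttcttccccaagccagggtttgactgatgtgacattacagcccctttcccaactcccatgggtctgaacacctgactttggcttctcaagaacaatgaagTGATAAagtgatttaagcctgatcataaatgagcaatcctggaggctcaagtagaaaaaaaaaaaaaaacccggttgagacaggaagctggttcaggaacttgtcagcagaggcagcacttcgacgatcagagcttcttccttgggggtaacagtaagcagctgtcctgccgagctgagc
Runx1 (chr16:92826025-92826324, minus strand): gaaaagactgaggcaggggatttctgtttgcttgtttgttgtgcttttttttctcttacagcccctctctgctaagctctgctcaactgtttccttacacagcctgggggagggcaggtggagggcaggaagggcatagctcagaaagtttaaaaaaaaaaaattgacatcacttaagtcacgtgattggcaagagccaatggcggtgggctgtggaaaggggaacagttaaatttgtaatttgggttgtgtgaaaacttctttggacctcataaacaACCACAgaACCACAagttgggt
Klf1 (chr8:84901732-84902031, plus strand): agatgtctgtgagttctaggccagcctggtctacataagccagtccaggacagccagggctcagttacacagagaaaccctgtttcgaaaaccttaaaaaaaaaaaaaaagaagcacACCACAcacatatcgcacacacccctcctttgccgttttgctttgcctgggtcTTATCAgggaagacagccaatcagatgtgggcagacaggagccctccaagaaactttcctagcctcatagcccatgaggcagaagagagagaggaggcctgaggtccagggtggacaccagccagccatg
Ces2g (chr8:104961468-104961767, plus strand): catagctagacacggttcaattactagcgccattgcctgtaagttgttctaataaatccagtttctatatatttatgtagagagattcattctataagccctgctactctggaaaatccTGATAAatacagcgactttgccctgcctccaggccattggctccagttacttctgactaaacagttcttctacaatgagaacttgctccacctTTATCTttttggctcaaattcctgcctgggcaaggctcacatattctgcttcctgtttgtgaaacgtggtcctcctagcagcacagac
The Clec1b promoter held the GATA letters 2 times and that of Slamf1 1 time, with no RUNX match. The printed Runx1 promoter held the RUNX letters 2 times, 8 bases apart and downstream of the start, in the same orientation. Klf1 held 1 match of each motif, Ces2g 2 GATA matches, and Itga2b none of these letters in this window. Over all 32851 RefSeq promoters of this length, 22.4% held the RUNX letters and 18.6% the GATA letters. Of 54 megakaryocyte and platelet genes of the table, 44 had a promoter in the reference (48 promoters), of which 27.1% held the RUNX and 18.8% the GATA letters. Of 40 promoters of the erythroid list (34 of 55 genes) 25% held the RUNX and 35.0% the GATA letters. Only 8 of the 15 largest rises and 11 of 14 of the largest falls had a promoter in the reference. Among 11 promoters of these rises the shares were 18.2% and 27.3% (2 and 3 promoters). Among 13 promoters of these falls they were 15.4% and 23.1% (2 and 3 promoters). A match is a description of letters and not of binding.

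Transcription factors of the megakaryocyte and erythroid lines were called in both directions, with 6 of 26 higher (23.1%, against 9.4% of all genes tested) and 3 lower (11.5% against 5.94%) and a median difference of 0.31 (0.13 against the lane 5 library). Over the 17 alternatives the number higher ranged from 5 to 12, the latter without wild-type MEP library 2, and the number lower from 1 (with group weights, with the 4 libraries alone and without XMP library 2) to 4. Of those that rose, Meis1, Erg, Fli1 and Lyl1 are given here, and those that fell were Klf1, Hhex and Myb. Meis1, a homeobox factor of blood stem cells, had 113 and 106 RPKM in XMP, 42.6 and 54.7 RPKM in wild-type MEP and 35 and 31.9 RPKM in Runx1-deleted MEP (log2 difference 1.17 ± 0.18, adjusted p = 0.00146). XMP lay above all 4 MEP libraries for Meis1, and its genotype difference in the MEP gate was -0.52 ± 0.18 (adjusted p = 0.127).

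The ETS factors Erg and Fli1 were both called higher. Erg had 59.5 and 72.1 RPKM in XMP and 17.4 and 31.3 RPKM in wild-type MEP (log2 difference 1.45 ± 0.26, adjusted p = 0.00354). Fli1, a driver of megakaryocyte genes, had 23.9 and 22.7 RPKM in XMP and 4.11 and 11.1 RPKM in wild-type MEP (log2 difference 1.63 ± 0.31, adjusted p = 0.0052). The wild-type MEP libraries themselves were far apart for Fli1, and the difference was 2.25 against the lane 3 and 1.01 against the lane 5 library. Lyl1, a basic helix-loop-helix factor of stem cells, was at 133 and 113 RPKM in XMP against 58.3 and 39.4 RPKM (log2 difference 1.33 ± 0.22, adjusted p = 0.00201). Klf1, the erythroid Krüppel-like factor, fell, with 33 and 25.6 RPKM in XMP, 123 and 93.3 RPKM in wild-type MEP and 153 and 112 RPKM in Runx1-deleted MEP (log2 difference -1.84 ± 0.26, adjusted p = 0.000722). XMP minus Runx1-deleted MEP was -2.13 ± 0.26 (adjusted p = 0.000937) and the genotype difference within the MEP gate 0.29 ± 0.26 (adjusted p = 0.544). Hhex and Myb were also called lower, with smaller differences (-0.93 ± 0.21 and -0.70 ± 0.21, adjusted p = 0.0124 and 0.0474) that were lost in 5 and 9 alternative fits. Gata2 was not called (161 and 159 RPKM against 216 and 227 RPKM, adjusted p = 0.147).

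Runx1 itself was higher in XMP, with 85.9 and 78.5 RPKM against 17.2 and 25.5 RPKM in wild-type MEP and 41.5 and 36.8 RPKM in Runx1-deleted MEP (log2 difference 1.92 ± 0.20, adjusted p = 9.36e-05). RPKM counts reads over the whole gene, so this value does not check the deletion of a part of it. Runx2 and Runx3, the other family members, had 9.79 and 10.5 RPKM and 71.7 and 69.99 RPKM in XMP against 3.11 and 5.74 RPKM and 38.9 and 48.8 RPKM in wild-type MEP. Their differences were 1.08 ± 0.23 and 0.69 ± 0.17 (adjusted p = 0.00919 and 0.0189), and both calls were lost when the 4 libraries were fitted alone. Cbfb was not called (47.5 and 38.5 RPKM against 50.5 and 56 RPKM, adjusted p = 0.216). Of 20 RUNX genes and partners tested 4 were called higher (20%, against 9.4% of all genes tested) and none lower, and Runx1t1 stayed under the filter. The number higher was 2 with the 4 libraries alone and without XMP library 2, where both Runx2 and Runx3 lost the call, and 11 without wild-type MEP library 2. Runx3 was also lost against the lane 5 library alone.

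Erythroid genes were called in both directions. Of 51 tested of 56 listed, 17 were called lower and 10 higher (33.3% and 19.6%, against 5.94% and 9.4% of all genes tested), with a median of -0.31. The number lower was 11 in the fit of lanes 4 and 5 alone, 10 without XMP library 2 and 7 with group weights. Of the called members, 2 of the higher and 1 of the lower had passed the filter through 1 group alone, which leaves 8 of 48 higher and 16 lower. Genes listed as erythroid commitment and other made up 8 of the 17 called lower (53.3% of the 15 tested). Car1, carbonic anhydrase 1 of early erythroid cells, had 46.2 and 16.3 RPKM in XMP, 878 and 857 RPKM in wild-type MEP and 334 and 375 RPKM in Runx1-deleted MEP (log2 difference -4.93 ± 0.40, adjusted p = 1.96e-05). It showed the largest fall of the named genes, and by the same amount against each wild-type MEP library (-4.94 and -4.91). Car2, chosen after its values were seen, had 127 and 69.6 RPKM in XMP against 342 and 353 RPKM (log2 difference -1.87 ± 0.31, adjusted p = 0.0022). Tspo2, an erythroid cholesterol transporter, had 10.3 and 10.3 RPKM in XMP, 57 and 42.3 RPKM in wild-type MEP and 66.2 and 88.8 RPKM in Runx1-deleted MEP (log2 difference -2.15 ± 0.24, adjusted p = 0.000174). Mt2, a metallothionein placed in the same list, was at 1.76 and 1.44 RPKM in XMP against 19.9 and 15.2 RPKM in wild-type MEP and 21.2 and 17.3 RPKM in Runx1-deleted MEP (log2 difference -2.83 ± 0.26, adjusted p = 4.18e-05).

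Among 18 red cell membrane genes 7 were called lower and 4 higher. Kel, the Kell blood group protein, fell from 10.8 and 13.7 RPKM in wild-type MEP to 1.28 and 1.43 RPKM in XMP, with 11.5 and 14.7 RPKM in Runx1-deleted MEP (log2 difference -2.48 ± 0.20, adjusted p = 1.96e-05). Ermap, an erythroid adhesion protein, had 8.36 and 4.48 RPKM in XMP, 22.4 and 39.2 RPKM in wild-type MEP and 99.1 and 114 RPKM in Runx1-deleted MEP, so that XMP lay below wild-type MEP (log2 difference -2.10 ± 0.31, adjusted p = 0.000898) and Runx1-deleted MEP lay above it, by 1.81 ± 0.31 (adjusted p = 0.00453). Rhag, the Rh-associated glycoprotein, was not called against wild-type MEP (4.46 and 2.92 RPKM against 4.02 and 5.52 RPKM, adjusted p = 0.326), while Runx1-deleted MEP held 32.5 and 28.2 RPKM. Ermap and Rhag were picked after their values were seen. Slc4a1, the band 3 anion exchanger, was low and went the other way, with 4.5 and 4.18 RPKM in XMP against 0.0604 and 0.324 RPKM in wild-type MEP (log2 difference 2.17 ± 0.16, adjusted p = 1.39e-05). Slc4a1 passed the filter through XMP alone, so that its direction was fixed. Epor, the erythropoietin receptor, was not called (6.18 and 6.12 RPKM against 8.14 and 8.13 RPKM, adjusted p = 0.152).

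Globin transcripts were higher in XMP in all 4 genes tested. Beta-s, an adult beta globin, had 872 and 445 RPKM in XMP, 70.1 and 63 RPKM in wild-type MEP and 222 and 191 RPKM in Runx1-deleted MEP (log2 difference 3.21 ± 0.34, adjusted p = 0.000121). Hbb-b1 had 63.4 and 35.9 RPKM in XMP against 4.96 and 3.31 RPKM (log2 difference 3.27 ± 0.40, adjusted p = 0.000307), and the alpha globin Hba-a2 319.6 and 154 RPKM against 26.3 and 26.1 RPKM (log2 difference 3.04 ± 0.36, adjusted p = 0.000238). Runx1-deleted GMP, with 229 and 376 RPKM of Beta-s, also exceeded both wild-type MEP libraries. These globin genes are near-identical in pairs and share reads, so that their separate levels are uncertain. Alas2, the erythroid enzyme of heme synthesis, was at 8.79 and 4.71 RPKM in XMP against 0.417 and 0.623 RPKM (log2 difference 2.30 ± 0.25, adjusted p = 0.000133). Of 14 heme and iron genes tested 2, Alad and Urod, were called lower (14.3%, against 5.94% of all genes tested). The Urod call was made again in only 6 alternative fits and the Alad call in 14. Both calls were lost with group weights, and that of Urod also with the 4 libraries alone. Alas2 passed the filter through XMP alone and so could differ only in this direction. For the globins and Alas2 XMP library 1 was above library 2, and both were above every wild-type MEP library.

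**Figure D3:**
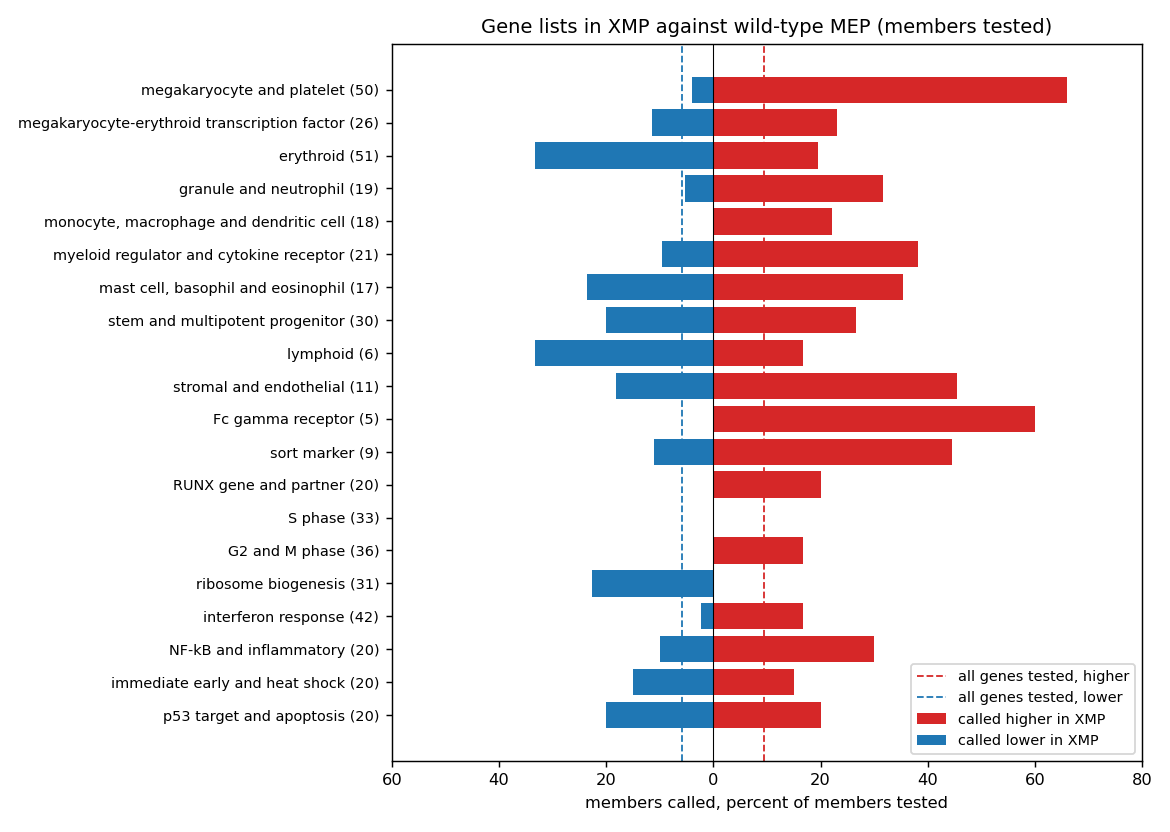
Members called higher (right, red) and lower (left, blue) in XMP as a percent of the members tested in each of 20 gene lists, with the number tested in brackets and the share of all genes tested as dashed lines (9.4% higher, 5.94% lower). The megakaryocyte and platelet list reaches 66.0% higher and the erythroid list 33.3% lower, while no S phase gene was called. List members were chosen with earlier results of these data known.

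Of 19 granule and neutrophil genes tested of 28 listed, 6 were called higher (31.6%, against 9.4% of all genes tested) and 1 lower (5.26% against 5.94%), with a median of 0.14, so that most of the list was not called. Of the 6, 2 had passed the filter through XMP alone, as the 1 lower had through wild-type MEP alone, which leaves 4 of 15 higher. Mpo, myeloperoxidase, had 76.9 and 53.8 RPKM in XMP and 13 and 11.9 RPKM in wild-type MEP (log2 difference 2.28 ± 0.23, adjusted p = 7.1e-05), against 5644 and 4918 RPKM in wild-type GMP. Ctsg, cathepsin G, had 24.9 and 20.1 RPKM in XMP and 5.13 and 4.66 RPKM in wild-type MEP (log2 difference 1.99 ± 0.18, adjusted p = 4.18e-05), against 1955 and 2277 RPKM in wild-type GMP. Elane, neutrophil elastase, was at 18 and 17.4 RPKM in XMP and 5.14 and 2.25 RPKM in wild-type MEP (log2 difference 2.06 ± 0.25, adjusted p = 0.000307). XMP thus lay above MEP of either genotype and far below GMP in these granule genes. The summed level of the granule list did not separate the groups, at 606 and 700.5 RPKM in XMP and 1095 and 653 RPKM in wild-type MEP, and no member was at 0 in all 4 libraries. The part of GMP within the sorted fraction in these values was not tested.

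Several receptors for myeloid cytokines were higher in XMP. Csf2rb, the shared beta chain of the receptors for GM-CSF, IL-3 and IL-5, had 19.97 and 33.1 RPKM in XMP, 1.29 and 1.47 RPKM in wild-type MEP and 4.64 and 5.31 RPKM in Runx1-deleted MEP (log2 difference 3.49 ± 0.23, adjusted p = 4.63e-06). Its close copy Csf2rb2 had 6.33 and 11.8 RPKM against 0.369 and 0.634 RPKM (log2 difference 2.70 ± 0.26, adjusted p = 5.59e-05), and reads of these copies may be shared. Csf3r, the G-CSF receptor, had 17.4 and 22.3 RPKM in XMP, 1.24 and 2.12 RPKM in wild-type MEP and 7.81 and 9.53 RPKM in Runx1-deleted MEP (log2 difference 2.97 ± 0.24, adjusted p = 1.85e-05). Runx1-deleted MEP lay between wild-type MEP and XMP for all 3 receptors. Ifngr1, an interferon gamma receptor chain, fell from 139.7 and 115 RPKM to 48.4 and 58.2 RPKM (log2 difference -1.24 ± 0.21, adjusted p = 0.00231). Of 21 myeloid regulators and receptors 8 were called higher and 2 lower (38.1% and 9.52%, against 9.4% and 5.94% of all genes tested), 1 of the 8, Csf2rb2, having passed the filter through XMP alone. The number higher was 3 or 4 in 8 of the 17 alternatives, among them each fit without an XMP library and the fit against the lane 5 library alone, and 6 to 9 in the others.

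Among myeloid transcription factors, Cebpa was lower in XMP (2.69 and 2.44 RPKM against 5.54 and 5.11 RPKM, log2 difference -0.83 ± 0.18, adjusted p = 0.00917), with 0.842 and 0.859 RPKM in Runx1-deleted MEP and 107 and 133 RPKM in wild-type GMP. This call was lost in 3 alternative fits. Sfpi1, which encodes PU.1, was not called (27.9 and 25.9 RPKM against 28 and 19.6 RPKM, adjusted p = 0.537). Of 18 monocyte, macrophage and dendritic cell genes 4 were called higher and none lower (22.2%, against 9.4% of all genes tested higher). Of these, Csf1r, Ccr2 and F13a1 had passed the filter through XMP alone and had to be higher, and the call of Mpeg1 was lost in 11 of the 17 alternatives. F13a1, coagulation factor XIII A, which monocytes and megakaryocytes share, had 6.78 and 3.88 RPKM against 0.378 and 0.493 RPKM (log2 difference 2.10 ± 0.24, adjusted p = 0.000186). Of 17 mast cell, basophil and eosinophil genes 6 were called higher and 4 lower (35.3% and 23.5%, against 9.4% and 5.94%). Of these, 2 of the higher and 3 of the lower had passed the filter through 1 group alone, which leaves 4 of 12 higher and 1 lower. Without XMP library 2 the number higher was 3. Cpa3, a mast cell carboxypeptidase, was at 26.1 and 25.9 RPKM in XMP against 11.3 and 10.6 RPKM, a call lost in 6 alternatives (log2 difference 1.18 ± 0.28, adjusted p = 0.0171), and Prss34, a basophil protease, fell from 4.36 and 2.06 RPKM to 0.236 and 0.0189 RPKM (log2 difference -1.85 ± 0.25, adjusted p = 0.000453). Prss34 passed the filter through wild-type MEP alone. Summed over the list these genes were at 206 and 247 RPKM in XMP and 266 and 273 RPKM in wild-type MEP, and 3 of the 34 were at 0 in all 4 libraries.

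The remaining large rises include genes with no list of blood cell markers. Podxl, podocalyxin, a sialomucin of endothelium and early blood cells, had 31.1 and 35.4 RPKM in XMP, 0.923 and 1.31 RPKM in wild-type MEP and 25.7 and 16.7 RPKM in Runx1-deleted MEP (log2 difference 4.02 ± 0.22, adjusted p = 1.68e-06). Clca1, of a family of chloride channel regulators, had 71.4 and 174 RPKM in XMP, 3.72 and 5.66 RPKM in wild-type MEP and 61.1 and 199 RPKM in Runx1-deleted MEP (log2 difference 4.33 ± 0.52, adjusted p = 0.000285). XMP and Runx1-deleted MEP overlapped for Clca1, and in both groups library 2 was the higher. St3gal6, a sialyltransferase, had 19.9 and 22 RPKM in XMP, 0.949 and 0.954 RPKM in wild-type MEP and 20.4 and 26.5 RPKM in Runx1-deleted MEP (log2 difference 3.49 ± 0.19, adjusted p = 1.68e-06), also without a difference between the Runx1-deleted groups that passed the test (-0.15 ± 0.19 (adjusted p = 0.772)). St3gal6 passed the filter through XMP alone, so that its direction against wild-type MEP was fixed.

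Other rises were larger in XMP than in Runx1-deleted MEP. Lilrb4, an inhibitory leukocyte receptor, had 17.7 and 17.7 RPKM in XMP, 0.136 and 0.295 RPKM in wild-type MEP and 4.4 and 4.72 RPKM in Runx1-deleted MEP (log2 difference 3.95 ± 0.16, adjusted p = 6.33e-07, XMP minus Runx1-deleted MEP 1.75 ± 0.16 (adjusted p = 0.000176)). Mtss1l had 60.2 and 50.7 RPKM in XMP, 2.36 and 3.68 RPKM in wild-type MEP and 22.1 and 15.9 RPKM in Runx1-deleted MEP (log2 difference 3.83 ± 0.26, adjusted p = 6.47e-06). Col18a1, collagen XVIII, had 16.1 and 19.6 RPKM, 0.792 and 0.878 RPKM and 5.69 and 7.11 RPKM in the same order (log2 difference 3.36 ± 0.19, adjusted p = 1.68e-06). Kdr, a VEGF receptor of endothelium, had 24.1 and 18.9 RPKM in XMP against 1.21 and 1.5 RPKM (log2 difference 3.25 ± 0.18, adjusted p = 1.68e-06). Kdr stood in the list of stromal and endothelial genes, of which the basement membrane collagens Col4a1 and Col4a2 were also called higher. Of 11 members tested, 5 were called higher and 2 lower (45.5% and 18.2%, against 9.4% and 5.94% of all genes tested). Of these, 2 of the 5 and 1 of the 2 had passed the filter through 1 group alone, which leaves 3 of 8 higher and 1 lower. Cdh5, a defining endothelial gene, did not pass the filter. Ppm1e and Fhdc1 complete the 15 largest rises, at 3.47 ± 0.20 and 3.41 ± 0.18 (adjusted p = 2.31e-06 and 1.68e-06). Lilrb4, Col18a1, Ppm1e and Fhdc1 passed the filter through XMP alone, so that their direction against wild-type MEP was fixed.

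The largest falls divided by the level of Runx1-deleted MEP. In a first set these MEP were low like XMP. Scin, the actin-severing protein scinderin, had 0.0877 and 0.161 RPKM in XMP, 18.3 and 30.8 RPKM in wild-type MEP and 0.0983 and 0.0867 RPKM in Runx1-deleted MEP (log2 difference -4.46 ± 0.24, adjusted p = 1.68e-06). The genotype difference in the MEP gate was -4.50 ± 0.24 (adjusted p = 4.01e-06), and XMP minus Runx1-deleted MEP 0.04 ± 0.24 (adjusted p = 0.968). Lgals1, galectin 1, had 24.7 and 26.6 RPKM, 344 and 199 RPKM and 23.3 and 26.4 RPKM in the same order (log2 difference -3.30 ± 0.25, adjusted p = 1.28e-05). Ifitm1, an interferon-induced membrane protein, had 13.1 and 10.4 RPKM, 168 and 100.99 RPKM and 13 and 8.66 RPKM (log2 difference -3.37 ± 0.27, adjusted p = 1.77e-05). Gja1, connexin 43, and Csrp3, a LIM protein, behaved in the same way, with XMP differences of -3.27 ± 0.25 and -3.22 ± 0.26 (adjusted p = 1.54e-05 and 1.96e-05) and genotype differences of -2.99 ± 0.25 (adjusted p = 4.86e-05) and -2.71 ± 0.26 (adjusted p = 0.000106). For these 5 genes the test did not separate XMP from Runx1-deleted MEP. Asns, asparagine synthetase, and Aldh1a1, a retinaldehyde dehydrogenase of stem cells, were also low in both Runx1-deleted groups, at 0.446 and 0.286 RPKM and 0.823 and 0.497 RPKM in XMP and 1.7 and 0.515 RPKM and 2.16 and 1.8 RPKM in Runx1-deleted MEP, against 13.2 and 17.3 RPKM and 17.1 and 25 RPKM in wild-type MEP. Scin, Gja1, Asns and Aldh1a1 passed the filter through wild-type MEP alone, so that XMP could only be lower in them.

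In a second set Runx1-deleted MEP stayed at the wild-type level. Ces2g, a carboxylesterase, had 7.4 and 3.99 RPKM in XMP, 61.5 and 88.8 RPKM in wild-type MEP and 74.4 and 68.6 RPKM in Runx1-deleted MEP (log2 difference -3.53 ± 0.28, adjusted p = 1.77e-05). Atp1b2, a beta subunit of the sodium pump, had 7.55 and 4.19 RPKM, 56.8 and 59.2 RPKM and 68.1 and 72.2 RPKM in the same order (log2 difference -3.15 ± 0.28, adjusted p = 3.42e-05). XMP minus Runx1-deleted MEP was -3.48 ± 0.28 (adjusted p = 8.19e-05) for Ces2g and -3.42 ± 0.28 (adjusted p = 8.95e-05) for Atp1b2, and the erythroid genes Kel, Tspo2, Mt2 and Klf1 above belong to the same set. Epdr1 (1.44 and 0.721 RPKM, 25.5 and 27.3 RPKM and 11.4 and 9.28 RPKM in the same order) and Rec8, a meiotic cohesin subunit (0.93 and 1.61 RPKM, 15.6 and 13.7 RPKM and 5.32 and 8.81 RPKM), lay between the sets, as did Car1. The contrasts with Runx1-deleted MEP share libraries with the main one and are given as values, not as further evidence.

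**Figure D4:**
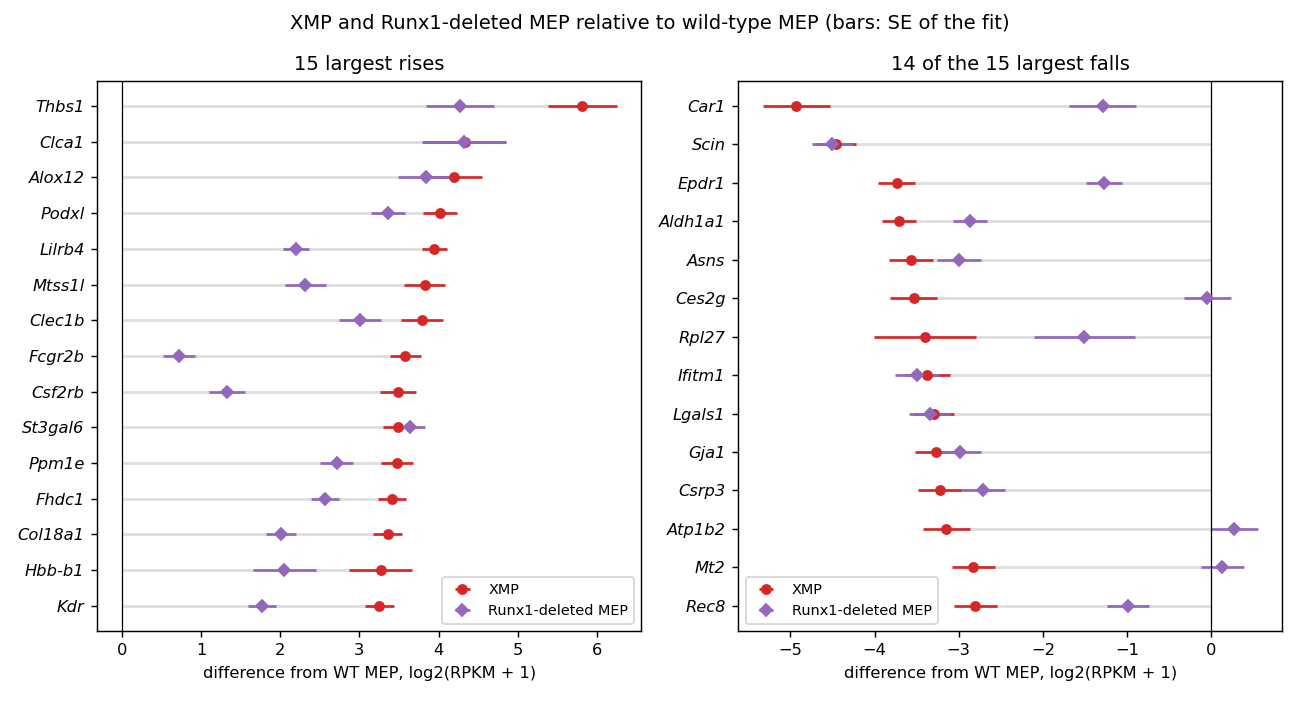
Difference from wild-type MEP, log2(RPKM + 1), of XMP (red circles) and of Runx1-deleted MEP (purple diamonds) for the 15 largest rises and 14 of the 15 largest falls in XMP, with the standard error of the fit as bars. The points of both groups lie close together for Scin, Ifitm1 and Lgals1, Runx1-deleted MEP lie near 0 for Ces2g, Atp1b2 and Mt2, and Fcgr2b and Csf2rb show the largest distance among the rises.

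Genes of stem and multipotent progenitors were called in both directions, 8 of 30 higher and 6 lower (26.7% and 20%, against 9.4% and 5.94% of all genes tested). Of these, 1 of the higher and 3 of the lower had passed the filter through 1 group alone. Without XMP library 2 only Ifitm1 was still called lower. Tek, the angiopoietin receptor, had 29.2 and 24.9 RPKM in XMP against 6.23 and 8.8 RPKM (log2 difference 1.73 ± 0.21, adjusted p = 0.000292), and Cd48, a SLAM family member, 81.5 and 76.7 RPKM against 40.1 and 25.2 RPKM (log2 difference 1.29 ± 0.21, adjusted p = 0.00185). Cd34 was not called (20.2 and 15.2 RPKM against 21 and 27 RPKM, adjusted p = 0.149). Among 6 lymphoid genes tested, Nkg7, a cytotoxic granule membrane protein, was at 27.9 and 41.5 RPKM in XMP, 178 and 122 RPKM in wild-type MEP and 4.08 and 8.11 RPKM in Runx1-deleted MEP (log2 difference -2.08 ± 0.31, adjusted p = 0.000915), so that it was lowest in Runx1-deleted MEP. Of 20 NF-kB and inflammatory genes 6 were called higher and 2 lower (30% and 10%, against 9.4% and 5.94%), 2 of the higher and 1 of the lower having passed the filter through 1 group alone. With either XMP library left out the number higher was 2. Bcl3, a nuclear NF-kB cofactor, rose from 1.95 and 1.8 RPKM to 12.8 and 16.3 RPKM (log2 difference 2.43 ± 0.20, adjusted p = 2.39e-05), and Tnfaip2 fell from 45.2 and 55.2 RPKM to 15.5 and 13.8 RPKM (log2 difference -1.71 ± 0.18, adjusted p = 9.83e-05). Of 42 interferon response genes 7 were called higher and 1 lower (16.7% and 2.38%, against 9.4% and 5.94%). The number higher was 4 with either XMP library left out and 17 without wild-type MEP library 2. Oas2, an antiviral enzyme, had 7.31 and 13.3 RPKM in XMP, 1.74 and 2.26 RPKM in wild-type MEP and 7.77 and 14.5 RPKM in Runx1-deleted MEP (log2 difference 1.87 ± 0.31, adjusted p = 0.0019).

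Of 33 S phase genes, which serve DNA replication, limma called 0 in either direction, with 1 higher and 0 lower at an unadjusted p under 0.05 and a median difference of 0.02. Of 36 G2 and M phase genes 6 were called higher (16.7%, against 9.4% of all genes tested) and none lower. None of the 6 was called without XMP library 1, with the 4 libraries alone or without a filter, 2 were against the lane 5 library alone, and 16 members were called higher without wild-type MEP library 2. Mki67, a marker of cycling cells, had 97.6 and 87.7 RPKM in XMP but 13.6 and 46.5 RPKM in wild-type MEP (log2 difference 1.83 ± 0.40, adjusted p = 0.0106). The lane 3 wild-type MEP library was the low one, and the difference from the lane 5 library was 0.98 against 2.68 from the lane 3 library. Of 31 ribosome biogenesis genes 7 were called lower (22.6%, against 5.94% of all genes tested) and none higher. None of the 7 was called without XMP library 2, with the 4 libraries alone or with group weights, and 2 were against the lane 5 library alone. Myc, a driver of ribosome production, fell from 188 and 169.9 RPKM to 93.2 and 99.2 RPKM (log2 difference -0.89 ± 0.23, adjusted p = 0.0248), a call lost in 6 alternatives. Of all genes tested 5.94% were called lower, and of the 2583 in the shortest of 4 length classes (183 to 1760 bp) 345 were. Beside these shares, 9 of 78 ribosomal protein genes, which are short (median 693.5 bp), were called lower and none higher. Their median difference was -0.78 (-1.22 against the lane 3 and -0.34 against the lane 5 library). Without the lane 3 library 2 of them were called lower. Rpl27, 1 of the 15 largest falls, had 53.3 and 47.7 RPKM in XMP and 1114 and 264 RPKM in wild-type MEP, and its difference (log2 difference -3.40 ± 0.60, adjusted p = 0.00306) was -4.44 from the lane 3 and -2.37 from the lane 5 library.

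Differences between the libraries followed gene length. With the genes tested split by length into 4 classes of about the same size, the median difference in the shortest class (183 to 1760 bp) was -0.31, and in the longest (4218 to 23495 bp) it was 0.39. Against the lane 3 wild-type MEP library these medians were -0.49 and 0.73, and against the lane 5 library -0.16 and 0.06. Calls were split in the same way, with 131 higher and 345 lower in the shortest class and 379 higher and 36 lower in the longest. With the length trend removed from each library 1594 genes were called, and 75.7% of the calls above were made again. The named platelet genes Itga2b, Treml1, Thbs1 and Clec1b and the erythroid genes Car1 and Klf1 kept their calls in that fit and against the lane 5 library alone. Between the lane 5 libraries, XMP library 1 and wild-type MEP library 2, the difference was 5.92 for Thbs1, 3.34 for Treml1, 1.99 for Itga2b, 3.54 for Fcgr2b, -4.18 for Car1 and -1.47 for Klf1, with no test since each side is 1 library.

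**Figure D5:**
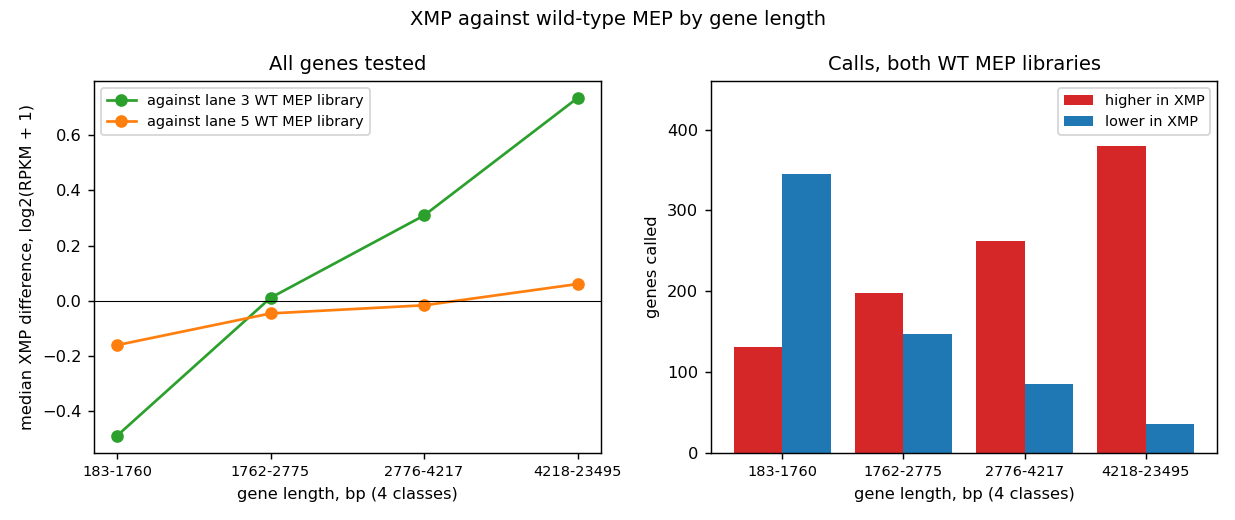
Left, median difference of mean XMP from the lane 3 (green) and the lane 5 (orange) wild-type MEP library, log2(RPKM + 1), over 4 classes of the genes tested by length in bp. Right, genes called higher (red) and lower (blue) in each class; the medians run from -0.49 to 0.73 against the lane 3 library and from -0.16 to 0.06 against the lane 5 library.

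The authors' deposited table holds its own comparison of these groups by Baggerley's test. It has 460 genes at an FDR-corrected p under 0.05, of which 341 were also called here. These were 74.1% of the authors' 460 genes and 21.5% of the calls here.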

How the data were processed

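RNA of sorted progenitors was extracted with peqGOLD TriFast and made into libraries with kits of TruSeq (V2 LT) or NEBNext (Ultra) make, per the labels' protocols; the kit of each library is not recorded there. The authors deposited a table of RPKM per gene and library, and, per the file headers, p-values with and without FDR correction from Baggerley's test for each pair of groups. Reads were placed on build mm9 according to the submitters' processing notes; aligner and counter: not given in the sources used here. Sample groups came from the labels, lanes from the column headers.

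The limma package (3.58.1, R 4.3.3; lmFit, then eBayes with trend) was run on log2(RPKM + 1) over all 10 libraries with 1 mean per group (5 residual degrees of freedom). A gene was tested if 2 or more of the 4 XMP and wild-type MEP libraries reached 1 RPKM, and p-values were adjusted by Benjamini-Hochberg over all 10324 of them. XMP minus Runx1-deleted MEP and Runx1-deleted MEP minus wild-type MEP are contrasts of the same fit. Read totals and gene lengths were worked back from the RPKM values, which were whole reads within 0.01 read in all 19336 genes with reads; 3904 genes were at 0 throughout, and 4640 gene lengths needed an annotation to be fixed. At these totals, a single read per kb of gene is worth 0.0182 to 0.0480 RPKM. The fit was tested on simulated data: it called nearly all genes changed 4-fold, but with the unequal spread of the real groups the share of false calls was above the nominal level. Named genes were the 15 largest rises and falls among called genes with a mean of at least 5 RPKM in the higher group that were called without either wild-type MEP library, up to 4 called members per list and direction, a fixed list of markers and regulators, and the 5 genes with wild-type MEP libraries furthest apart; Itgb3, Gp1ba, Gp5, Gp9, F2r, Plek, Ptgs1, Tbxas1, Tubb1, Myh9, Ppbp, Hba-a1, Rhd, Ermap, Rhag and Car2 were added after their values were seen. Some genes named by these rules are not reported here. Members and lists were chosen with earlier results of these data known. Listed genes Mpig6b, Bin2, Ahsp, Azu1 and Noc2l were not matched to the table. Alternatives were 17 fits with other libraries, filters, scalings, weights or blocks.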

Additional observations from a re-analysis of the deposited data

How the results depend on the processing

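Of 159 named genes tested, 137 were called, and 90 of these kept the call and its direction in each of the 17 alternatives that tested them; none was reversed. Counts of called genes moved from 1583 to 701 with only the 4 libraries compared, 928 with a mean of at least 5 RPKM, 634 with group weights and 1034 with lanes 4 and 5 alone, and ranged from 687 (without XMP library 2) to 4585 (without wild-type MEP library 2) when a library was left out; an arm of 1 library is assumed to vary like the other groups. No filter (1518), a filter over all 10 libraries (1584), a pseudocount of 0.1 (1432), no trend (1548) and removal of the length trend (1594) stayed within 1.5 times. Megakaryocyte and platelet members higher fell from 33 to 21 with group weights and ranged from 25 to 35 with a library left out. Erythroid members lower fell from 17 to 7 with group weights, 11 with lanes 4 and 5 alone and 10 without XMP library 2 (range 10 to 18). Myeloid regulator and receptor members higher fell from 8 to 3 with the 4 libraries alone, a mean of at least 5 RPKM, group weights or lanes 4 and 5 alone, to 4 without a filter, and ranged from 3 to 9 with a library left out. The cause of these changes was not tested, beyond fewer genes tested under a mean of 5 RPKM and fewer libraries in the fits of 4 and of lanes 4 and 5. Among named genes, 43 calls were lost with group weights, 34 with the 4 libraries alone and 26 with lanes 4 and 5 alone. With the replicate number as a block 1689 genes were called, and with the library number as a block 2088; replicate numbers of the labels are not said to mark a shared animal, and the deviations of XMP and wild-type MEP libraries of the same number correlated at 0.376 across genes. Each group has 2 libraries, which limits the precision of every standard error.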

Other observations

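The wild-type MEP libraries were furthest apart, among genes with a mean of at least 5 RPKM there, in Kcna3, Xist, Uhmk1, Lnpep and Cdk6. Kcna3, a potassium channel, had 0.712 and 14.7 RPKM in wild-type MEP and 21.4 and 22.7 RPKM in XMP, and was not called (log2 difference 2.15 ± 0.70, adjusted p = 0.0609). Cdk6, a cyclin-dependent kinase of early progenitors, had 14.4 and 82.8 RPKM in wild-type MEP and 58.4 and 100.1 RPKM in XMP (adjusted p = 0.206). In all 5 genes the lane 3 library was the low one, and the lane 5 library lay nearer to XMP.

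Xist, the X inactivation RNA of female cells, had 2.9 and 31.1 RPKM in wild-type MEP, 54.6 and 109.5 RPKM in Runx1-deleted MEP and 59.99 and 124 RPKM in XMP. The Y-linked gene Eif2s3y had 12.5 and 22.6 RPKM in wild-type MEP and 4.46 and 8.61 RPKM in XMP. Reads of Xist and of these Y-linked genes were present in every library of the series, and the labels used here give no sex. The Xist call (log2 difference 2.96 ± 0.87, adjusted p = 0.0428) was lost in 10 of the 17 alternatives, among them the fit against the lane 5 library alone.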
